A study of Rattus norvegicus with 4 samples.

Results

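Expression of 6 genes of iron uptake, iron storage and heme breakdown was compared between 2 sublines of the Dunning R3327 rat prostate tumour, MAT-LyLu and G. The genes were Tfrc, Fth1, Ftl1, Hmox1, Tf and Cp, and the members were all probe sets of the deposited table that the platform annotation pairs with 1 of these symbols, which gave 12 of 8799 probe sets for 6 of 5147 annotated symbols. MAT-LyLu is a line the submitters describe as highly metastatic, and G, the control of the design, is described as non-metastatic. Neither line carried a stated treatment or genetic change, and each was measured with 2 arrays, numbered 0 and 1, on which biotin-labelled cRNA from total RNA was hybridised. The labels name no separate cultures, so the spread behind each p-value is that between arrays of a line and may be technical only. Each line is 1 cell line, so a difference between them is a difference between these lines and not between metastatic and non-metastatic tumours in general.

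Cells take up iron by binding transferrin, the plasma iron carrier encoded by Tf, to the transferrin receptor encoded by Tfrc, and proliferating tumour cells are known for their use of this route. Inside the cell, iron that is not in use is stored in ferritin, a shell of heavy (Fth1) and light (Ftl1) chains of which the heavy chain oxidises iron for storage. Heme oxygenase 1, encoded by Hmox1, opens the heme ring and frees its iron and is induced by heme and oxidative stress, and ceruloplasmin, encoded by Cp, is a copper enzyme that oxidises iron for loading onto transferrin. Iron regulatory proteins bind ferritin and transferrin receptor mRNAs when iron is low, which blocks ferritin translation and stabilises the receptor mRNA. Protein, and the translational side of this control, was not measured here.

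A single symbol was given for 6 of the 12 probe sets, namely those of Tfrc (1 probe set), Hmox1 (2) and Cp (3). The Fth1 probe set was also annotated to the pseudogene Fth1-ps5, the 2 Ftl1 probe sets to several Ftl1-like genes and pseudogenes and to Ripor2, and the 3 Tf probe sets to Srprb. Values of these last 3 groups therefore belong to the probe sets and cannot be given to 1 gene. RefSeq promoter sequences on the GRCr8 build were matched for 3 of the 6 genes, Tfrc, Tf and Cp.

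Array medians ran from 2998 to 3015 signal units in MAT-LyLu and from 3049 to 3156 in G. G replicate 1 stood apart at the bright end of the scale, where its highest signal was 64036, against 47120 on the other G array and 46422 and 45582 on the MAT-LyLu arrays. A control level was set on each array at the 95th percentile of 23 bacterial, yeast and mouse control probe sets, and it ran from 1891 to 2311. A signal above it is no proof of expression. Of 13 liver genes checked, 8 lay above it on at least 1 MAT-LyLu array and 10 on at least 1 G array, the albumin gene Alb among them, with summed signals of 42189 and 43603 in MAT-LyLu and 43117 and 41419 in G. The same held for 4 of 6 macrophage genes in each line, with sums of 22351 and 23718 in MAT-LyLu and 22503 and 21381 in G, and for 5 of 6 erythroid genes in each line, with sums of 27195 and 28841 in MAT-LyLu and 30345 and 30694 in G. Of 10 prostate epithelial genes measured, 3 lay above the level in MAT-LyLu and 4 in G, with sums of 56284 and 57031 in MAT-LyLu and 17363 and 15907 in G. That sum followed the keratin gene Krt8, at 41435 and 41521 in MAT-LyLu against 1978 and 1691 in G. Krt5 lay above the level on all 4 arrays, at 3148 and 3253 in MAT-LyLu and 3335 and 3055 in G. Spink1 did too, at 3218 and 3467 in MAT-LyLu and 3339 and 3455 in G. Epcam and Pbsn were under the level on all 4 arrays and were not tested. In the test described below, Krt8 was higher in MAT-LyLu, and Krt5, Spink1, Krt18 and Krt19 did not pass. Krt18 read 1578 and 1871 in MAT-LyLu, under the level on both arrays, and 2015 and 1452 in G. Alb, Krt8, Krt5, Spink1, Epcam, Pbsn, Krt18 and Krt19 were named after their values were seen. The part of other cell types in the results below was not tested.

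Tfrc and Hmox1 had lower signals in MAT-LyLu than in G, and no probe set of the 6 genes had a higher one that passed the test. The Tfrc signal was at least 1.89-fold lower, and the 2 Hmox1 probe sets were 1.76-fold and 1.25-fold lower. Ferritin probe sets were among the brightest on the arrays and gave no difference that could be told from the spread of the G arrays. The probe sets of Tf and Cp did not pass. Differences were tested with limma on log2(signal + 16) over 6555 probe sets with Benjamini-Hochberg adjustment, and 9 of the 12 probe sets had enough signal to enter that test. Of these 9, 3 were lower in MAT-LyLu and none was higher, against 34.1% of all tested probe sets that passed in either direction, 20.3% lower and 13.9% higher. The split by direction depends on the scaling, with 1181 lower and 1139 higher of the 6555 under quantile normalization. The count of members is close to that background and sets the group of genes apart in no way. At an unadjusted p under 0.05 in the same limma fit, 3 were lower and 1, a Cp probe set, was higher. The arrays of the 2 lines did not overlap for 7 of the 9, against 67.7% of all tested probe sets. The median log2 difference (MAT-LyLu minus G) of the 8 that were not saturated on all 4 arrays was -0.26, beside -0.03 over all tested probe sets. This median lies between 2 ferritin probe sets whose values move with G replicate 1, as given with them below, and it is no summary of the other genes. With 2 arrays against 2, the smallest 2-sided p of an exact permutation test of a single value is 0.333, so each adjusted p draws on limma's estimate of the variance from all probe sets together.

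**Figure D1:**
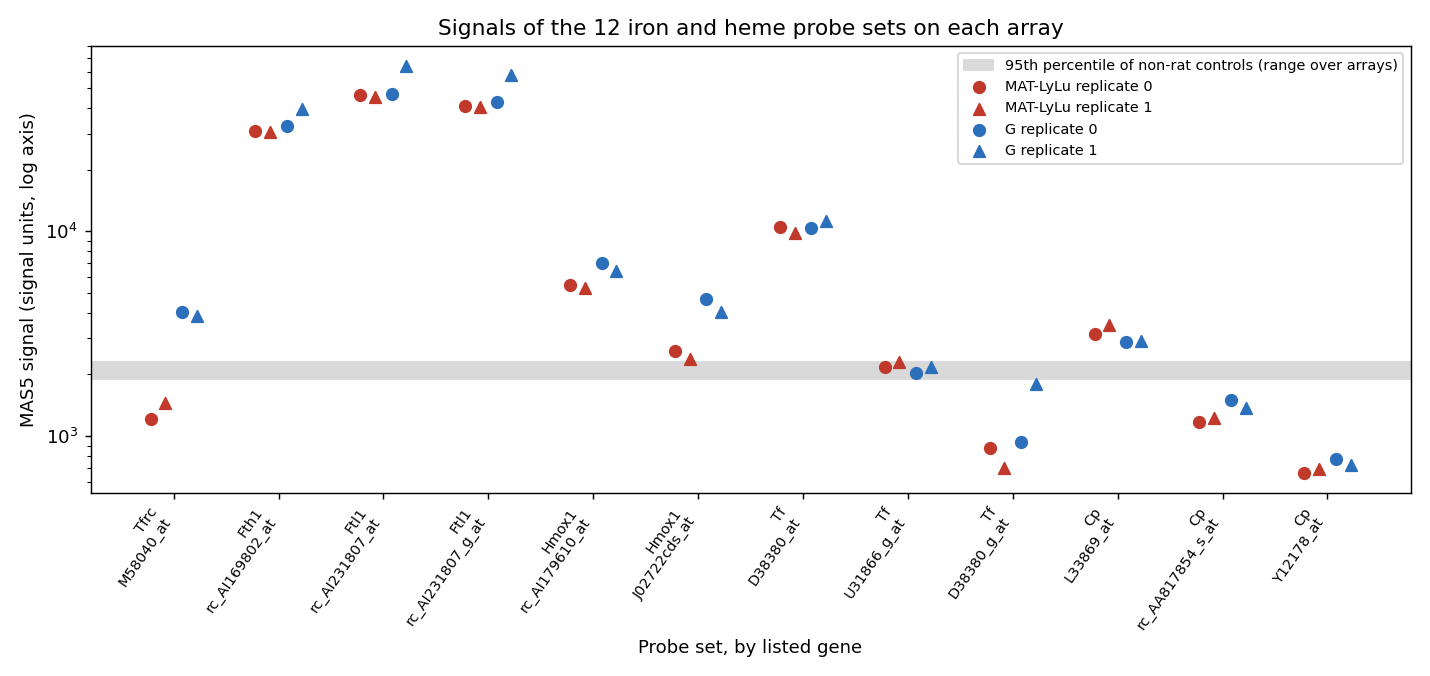
MAS5 signal (signal units, log axis) of the 12 probe sets on each array, with MAT-LyLu in red and G in blue, replicate 0 as circles and replicate 1 as triangles, and the control level of the arrays (1891 to 2311) as a grey band. The MAT-LyLu points of Tfrc lie under the band and both G points above it, and the ferritin points lie above all others.

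Tfrc encodes the receptor that carries iron-loaded transferrin into the cell. Its single probe set (M58040_at) read 1217 and 1457 in MAT-LyLu, against 4034 and 3872 in G. Both MAT-LyLu arrays were below both G arrays. The gap between the lines was larger than the spread within either of them: the means were 1337 ± 169 in MAT-LyLu and 3953 ± 115 in G (SD, n = 2 each). The log2 difference was -1.56 with a standard error (SE) of 0.11 and a 95% interval of -1.81 to -1.31 (limma, adjusted p = 1.9e-05). As both MAT-LyLu values were under the control level, the fall has only a bound, at least 1.89-fold, where a dim value is replaced by the control level of its array; the measured signals alone give 2.97-fold. The call held in all 14 alternatives that tested this probe set, with adjusted p from 4.3e-06 to 0.000152. In RNA from whole cultures, fewer cells expressing a gene and less RNA per cell cannot be told apart.

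The sequence just upstream of Tfrc is shown because this gene had the largest difference among the 6. The 250 bases before its RefSeq start lie at chr11:81690319-81690568 on the minus strand of GRCr8, and capitals mark matches to 2 motifs searched on both strands. ACGTG is the core of the hypoxia response element, to which hypoxia-inducible factors bind and through which human TFRC is known to respond to low oxygen, and TGACGT is the core of the cyclic AMP response element.
Tfrc: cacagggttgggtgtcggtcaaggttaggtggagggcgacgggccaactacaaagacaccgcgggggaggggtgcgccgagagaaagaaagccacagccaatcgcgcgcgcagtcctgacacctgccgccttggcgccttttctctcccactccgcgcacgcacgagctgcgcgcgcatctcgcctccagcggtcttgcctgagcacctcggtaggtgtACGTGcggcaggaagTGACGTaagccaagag

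ACGTG occurred once, 31 to 27 bases before the start, and TGACGT once, 16 to 11 bases before it, and the 2 matches do not overlap. Of 33469 RefSeq promoters, 16.6% held ACGTG and 6.95% held TGACGT in the same window of 250 bases, so neither match is particular to Tfrc. Neither motif was in the windows of Tf and Cp. The GC box letters GGGCGG (30.5% of promoters) and the core TGACNNNGC of the antioxidant response element (10.1%), which Nrf2 binds, were searched too, and neither was found in the windows of Tfrc, Tf or Cp. These are matches of letters and no measurement of binding.

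Hmox1 encodes the inducible heme oxygenase. On the probe set J02722cds_at its signals were 2590 and 2384 in MAT-LyLu, against 4685 and 4060 in G, with both MAT-LyLu arrays below both G arrays. All 4 values were above the control level, but the 2384 of MAT-LyLu replicate 1 lay just above the level of its array, 2311. The log2 difference was -0.81 (SE 0.10, 95% interval -1.04 to -0.57, limma adjusted p = 0.000493), a 1.76-fold fall, and it passed in all 15 alternatives. The second probe set, rc_AI179610_at, was brighter, at 5497 and 5267 in MAT-LyLu and 7041 and 6378 in G, again with no overlap of the lines. Its difference was smaller, at -0.32 (SE 0.09, 95% interval -0.52 to -0.11, limma adjusted p = 0.027), a 1.25-fold fall. That call was lost with quantile normalization (adjusted p = 0.051), without MAT-LyLu replicate 0 (0.064), without MAT-LyLu replicate 1 (0.13) and without G replicate 0 (0.12). The probe sets of Hmox1 thus agree in direction and differ in size, with 95% intervals that do not overlap.

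Ferritin chains came next in the order of roles. The probe set annotated to Fth1 and Fth1-ps5 (rc_AI169802_at) read 30765 and 30489 in MAT-LyLu, against 32691 and 39471 in G. G replicate 1 alone was far from the other 3 arrays. The log2 difference was -0.23 (SE 0.12, 95% interval -0.52 to 0.06) and did not pass (limma adjusted p = 0.21). Without G replicate 0 it was -0.37 (adjusted p = 0.0040), and without G replicate 1 it was -0.09 (adjusted p = 0.39).

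The light chain was read by 2 probe sets, both annotated to Ftl1 together with Ftl1-like genes and pseudogenes and Ripor2. On rc_AI231807_at the signals were 46324 and 45498 in MAT-LyLu, against 47036 and 63953 in G. These values were 99.8% of the array's highest signal on both MAT-LyLu arrays, and 99.8% and 99.9% of it on the G arrays, so the probe set was saturated everywhere and no fold is given. The related rc_AI231807_g_at read 40978 and 40391 in MAT-LyLu, against 42573 and 57854 in G, with a log2 difference of -0.29 (SE 0.16, 95% interval -0.65 to 0.08, limma adjusted p = 0.22). Here too the gap between the G arrays, 0.44 on the log2 scale, was larger than the difference between the lines. The saturated rc_AI231807_at had the same gap, 0.44. At 88.3% to 90.4% of the highest signal of each array, rc_AI231807_g_at was not counted as saturated. Whether its values also follow the highest signals of the arrays was not tested. Without G replicate 0 the difference of this probe set was -0.51 (adjusted p = 0.00031), without G replicate 1 it was -0.07 (adjusted p = 0.52), and with quantile normalization it was -0.14 (adjusted p = 0.036).

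The shift of G replicate 1 was shared by other bright probe sets. Over the 218 tested probe sets with a mean signal of at least 30000, the median log2 difference of G replicate 1 minus G replicate 0 was 0.23, beside -0.05 over all tested probe sets. The highest signal of G replicate 1 was 1.36 times that of G replicate 0. As a share of the highest signal of its array, the Fth1 probe set stood at 66.3% and 66.9% in MAT-LyLu and at 69.4% and 61.6% in G. The lines overlapped on this scale, with G replicate 1 lowest. The log2 gap between the G arrays was 0.27 for this probe set, against 0.44 for the saturated rc_AI231807_at. The scale thus took more off G replicate 1 than the gap of the Fth1 probe set itself. On the same scale, the light chain probe set rc_AI231807_g_at stood at 88.3% and 88.6% in MAT-LyLu and at 90.4% and 90.3% in G. For that probe set the lines did not overlap. This scale was chosen after seeing the data, and no test was made on it.

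**Figure D2:**
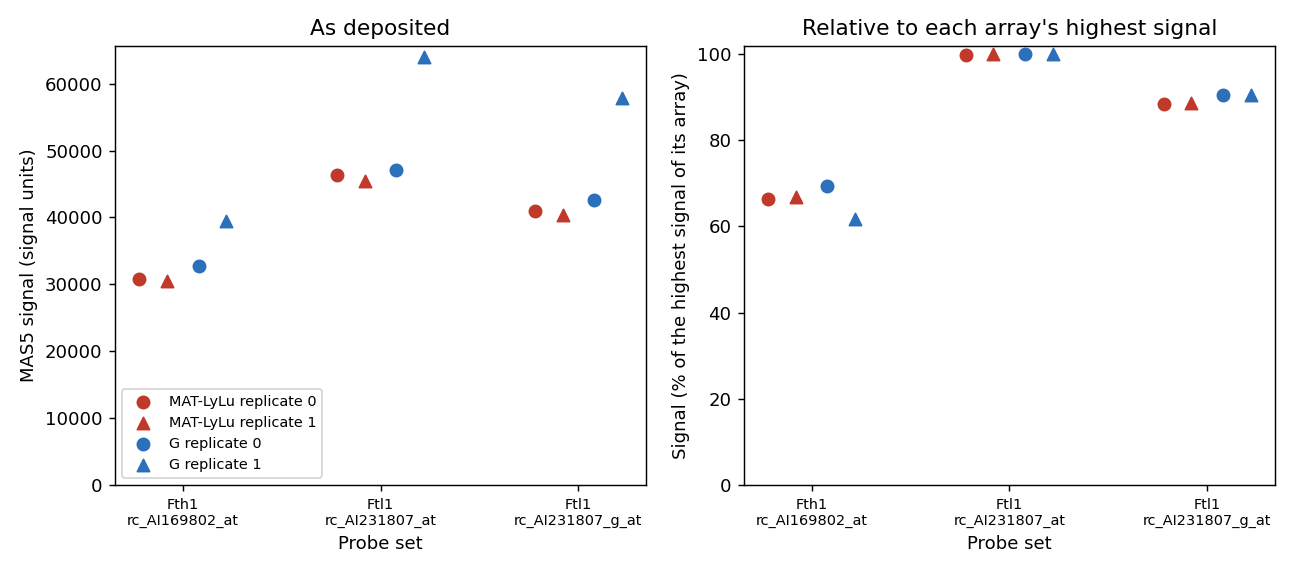
Signals of the 3 ferritin probe sets on each array as deposited (left, signal units) and as a percentage of the array's highest signal (right), with MAT-LyLu in red, G in blue, replicate 0 as circles and replicate 1 as triangles. On the left G replicate 1 stands above the other 3 arrays for each probe set, and on the right rc_AI231807_at lies at 99.8% to 99.9% on all arrays.

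Tf encodes the plasma iron carrier, which is made mainly by the liver. All its probe sets share the annotation to Srprb, a subunit of the signal recognition particle receptor. The brightest, D38380_at, read 10548 and 9862 in MAT-LyLu, against 10347 and 11173 in G, with overlapping lines and a log2 difference of -0.08 (SE 0.09, 95% interval -0.29 to 0.14, limma adjusted p = 0.57). U31866_g_at lay just above the control level, at 2167 and 2312 in MAT-LyLu and 2023 and 2184 in G, and its difference was 0.09 (SE 0.09, 95% interval -0.12 to 0.30, limma adjusted p = 0.51). The third, D38380_g_at, was under the control level on all 4 arrays and was not tested. It read 880 and 700 in MAT-LyLu, against 940 and 1807 in G, so that only G replicate 1 was far from the rest.

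Cp encodes the plasma ferroxidase ceruloplasmin. Its L33869_at signals were 3169 and 3500 in MAT-LyLu, against 2870 and 2899 in G. Both MAT-LyLu arrays were above both G arrays, with a log2 difference of 0.21 (SE 0.09, 95% interval 0.0022 to 0.41) that did not pass after adjustment (limma adjusted p = 0.12). The other Cp probe sets were under the control level on all 4 arrays and were not tested: rc_AA817854_s_at read 1172 and 1229 in MAT-LyLu and 1497 and 1372 in G, and Y12178_at read 664 and 690 in MAT-LyLu and 769 and 727 in G. Both of these dim probe sets lay lower in MAT-LyLu, opposite in sign to L33869_at.

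**Figure D3:**
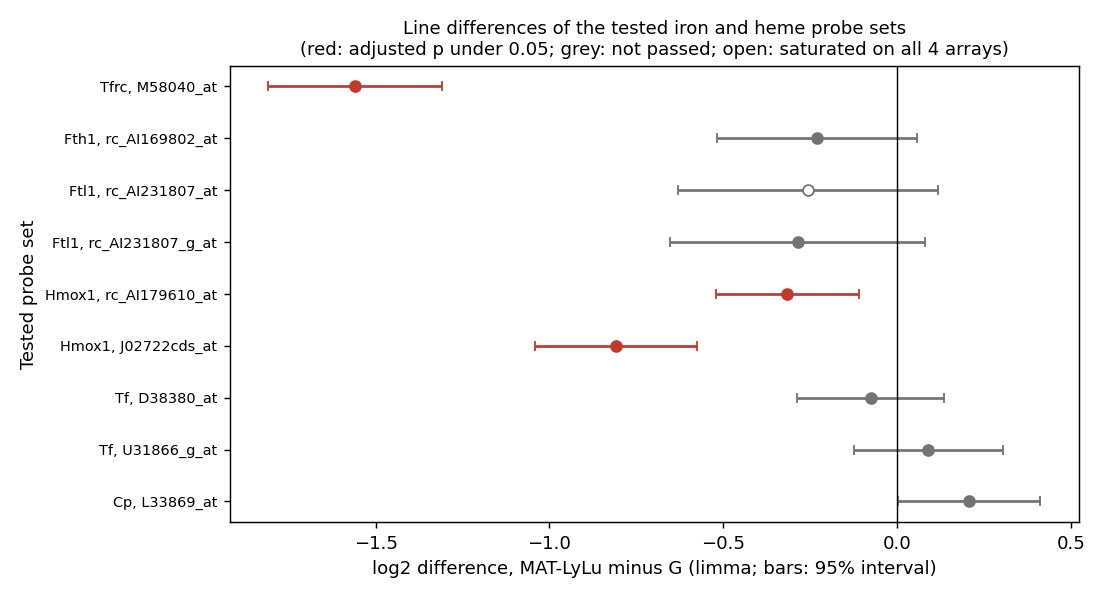
Fitted log2 difference, MAT-LyLu minus G, of the 9 tested probe sets with 95% intervals, in red where the adjusted p was under 0.05 and in grey otherwise. Tfrc at -1.56 and the Hmox1 probe sets at -0.81 and -0.32 lie wholly below 0, while the ferritin and Tf intervals include 0 and the Cp interval starts at 0.0022. The open point is rc_AI231807_at, which was saturated on all 4 arrays and for which no fold is given.

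Among the other genes of iron and heme handling, 126 were listed in 8 groups, 53 were on the array under 1 symbol and 51 were tested. Of these, 12 were higher and 20 lower in MAT-LyLu and 19 did not pass, with a median log2 difference of -0.17, beside -0.02 over all tested genes. By the same reading, 33.8% of all 3866 tested genes passed in either direction, 14.1% higher and 19.7% lower. Each gene was read by its brightest tested probe set, with the adjusted p of the limma fit over all probe sets. The lists were drawn up with earlier results of these data known, and no test of a list was made.

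In iron import and export, 2 of 6 tested genes were lower, 1 was higher and 3 did not pass. The shares over all tested genes were 19.7% lower and 14.1% higher. Slc11a2, the divalent metal transporter that moves iron out of endosomes after transferrin uptake, read 3276 and 3479 in MAT-LyLu, against 5350 and 4983 in G, a 1.53-fold fall (log2 difference -0.61, SE 0.09, adjusted p = 0.00095). A second tested probe set of Slc11a2 read 1089 and 1414 in MAT-LyLu and 2025 and 1689 in G, with 3 of these 4 values under the control level, and no size is given for it. Slc40a1, or ferroportin, the only known cellular iron exporter, read 1454 and 1636 in MAT-LyLu, against 2187 and 2351 in G. Its MAT-LyLu values were under the control level, and the fall of Slc40a1 was at least 1.08-fold (log2 difference -0.55, adjusted p = 0.0038). A floor at the control level ended that call (adjusted p = 0.67), and the second probe set was under the control level on all 4 arrays. Cybrd1, a membrane ferric reductase, was 1.26-fold higher (adjusted p = 0.040), a call lost without MAT-LyLu replicate 1 (adjusted p = 0.25), G replicate 0 (0.055) or G replicate 1 (0.11). Hfe, which binds the transferrin receptor, had a log2 difference of 0.18 and did not pass on its brightest probe set (adjusted p = 0.15). Its dimmer probe set passed as higher (adjusted p = 0.0094), but both G values and 1 MAT-LyLu value were under the control level, and no size is given for it.

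Of 3 genes of iron sensing and ferritin handling tested, 1 was lower, 1 higher and 1 did not pass. These counts stand beside 19.7% lower and 14.1% higher of all tested genes. Ireb2, iron regulatory protein 2, read 2916 and 2885 in MAT-LyLu, against 3589 and 3639 in G, a 1.25-fold fall (adjusted p = 0.017) that was lost without MAT-LyLu replicate 0 (adjusted p = 0.063) or MAT-LyLu replicate 1 (0.078). Aco1, iron regulatory protein 1, overlapped between the lines, at 5578 and 6032 in MAT-LyLu and 6517 and 5963 in G (log2 difference -0.10, adjusted p = 0.43). Ncoa4, the receptor that delivers ferritin to lysosomes, was 1.33-fold higher, at 7662 and 7403 in MAT-LyLu against 6043 and 5296 in G (adjusted p = 0.011). Without G replicate 1 the Ncoa4 call was lost (adjusted p = 0.054).

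Heme synthesis genes moved in both directions, with 4 of 7 tested lower, 2 higher and 1 not passed. Over all tested genes, 19.7% were lower and 14.1% higher. Alas1, the first and rate-limiting enzyme outside erythroid cells, read 1269 and 1210 in MAT-LyLu, against 3033 and 2867 in G. Both MAT-LyLu values of Alas1 were under the control level, and the fall was at least 1.41-fold (log2 difference -1.24, SE 0.09, adjusted p = 2.6e-05). Abcb6, a porphyrin transporter, fell at least 1.77-fold, at 1524 and 1600 in MAT-LyLu against 3897 and 3504 in G (adjusted p = 3.1e-05). Tspo, an outer mitochondrial membrane protein that binds porphyrins, was 1.35-fold lower (adjusted p = 0.0089), and this call was lost without MAT-LyLu replicate 0 (adjusted p = 0.076) or MAT-LyLu replicate 1 (0.10). Urod, a later enzyme of the pathway, was 1.27-fold higher, at 9351 and 9770 in MAT-LyLu against 7527 and 7521 in G (adjusted p = 0.013). Without MAT-LyLu replicate 1 the Urod call was lost (adjusted p = 0.094).

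In heme breakdown and scavenging, 2 of 4 tested genes were higher and 2 did not pass, beside 14.1% higher of all tested genes. Hmox2, the constitutive heme oxygenase, overlapped between the lines, at 5606 and 6440 in MAT-LyLu and 5628 and 6269 in G (log2 difference 0.02, SE 0.10, adjusted p = 0.92). Blvra, the biliverdin reductase that acts after heme oxygenase, read 5073 and 5191 in MAT-LyLu, against 6264 and 5730 in G, and did not pass (log2 difference -0.22, adjusted p = 0.084). Por, the reductase that passes electrons to heme oxygenase and cytochromes P450, read 15061 and 14157 in MAT-LyLu, against 9929 and 6894 in G, a 1.76-fold rise (adjusted p = 0.0054). Of the 3 Por probe sets, 2 were higher and the third did not pass (log2 difference 0.05, adjusted p = 0.73). Hp, the haemoglobin scavenger haptoglobin, was 1.21-fold higher (adjusted p = 0.042), and its call was lost without MAT-LyLu replicate 0 (adjusted p = 0.18), MAT-LyLu replicate 1 (0.087) or G replicate 0 (0.14). The single gene tested from the list of iron-sulfur cluster and mitochondrial iron genes, the ferredoxin Fdx1, was 1.28-fold lower (adjusted p = 0.010). Without MAT-LyLu replicate 1 its log2 difference was -0.34 and it missed the threshold.

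Hmox1 is a textbook target of the transcription factor Nrf2, and other genes of that system went apart. Of 13 tested, 3 were higher, 4 lower and 6 did not pass, beside 14.1% higher and 19.7% lower of all tested genes. Nfe2l2, which encodes Nrf2, read 6074 and 5002 in MAT-LyLu and 6988 and 5375 in G, with overlapping lines (log2 difference -0.15, SE 0.14, adjusted p = 0.47). The quinone reductase Nqo1, unlike Hmox1, was higher, at 27353 and 24411 in MAT-LyLu against 11715 and 12439 in G, a 2.14-fold rise (adjusted p = 0.00010). Its second probe set was higher too (log2 difference 1.36, adjusted p = 0.00022), with 1 of the 2 G values under the control level. Tkt, the transketolase of the pentose phosphate pathway, was 3.11-fold higher (adjusted p = 8.6e-06). The glutathione transferase Gsta1, read by a probe set that can match related transcripts, was 2.68-fold lower (adjusted p = 3.6e-05), and the epoxide hydrolase Ephx1 was 1.92-fold lower, at 1922 and 1930 in MAT-LyLu against 3728 and 3653 in G (adjusted p = 7.3e-05). Of its MAT-LyLu values, 1930 was under the control level of its array, and with a floor at that level the log2 difference was -0.80 (adjusted p = 7.3e-05).

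**Figure D4:**
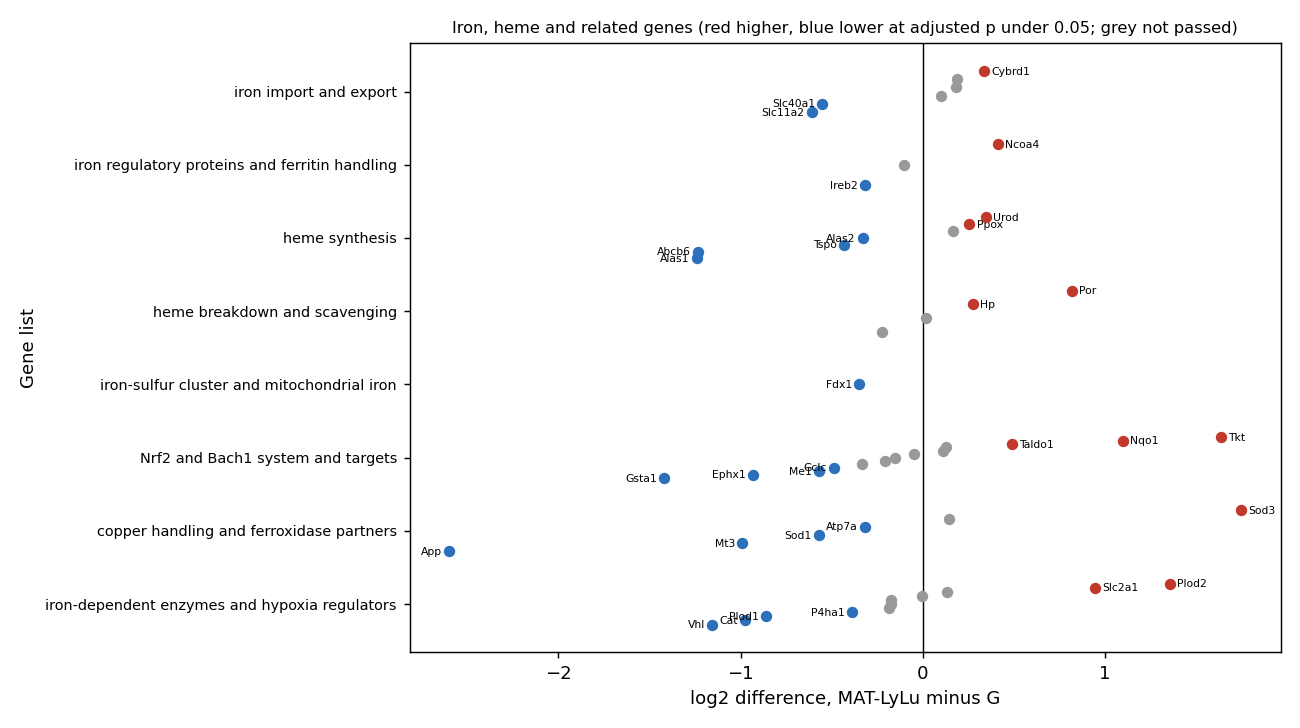
Fitted log2 difference, MAT-LyLu minus G, of the 51 tested genes of 8 lists, 1 point per gene, in red where higher and in blue where lower at an adjusted p under 0.05 and in grey otherwise. Points lie on both sides of 0 in most lists, and the median of all genes shown was -0.17.

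The genes whose signals followed those of Tfrc most closely over the 4 arrays were Akr1c14, a hydroxysteroid dehydrogenase, Psmb8, an immunoproteasome subunit, and Map1a, a microtubule-associated protein. Likeness was the root mean square difference of log2 signals centred on the mean of the 4 arrays, which was 0.03 for Akr1c14, 0.06 for Psmb8 and 0.07 for Map1a. Akr1c14 read 1361 and 1561 in MAT-LyLu, against 4333 and 4263 in G. The MAT-LyLu values of Akr1c14 and of Tfrc all lay under the control level, so their closeness on those arrays has no measured size. For the brighter Hmox1 probe set the nearest genes were Cacna1c (0.01), Uqcc4 (0.02) and Vezf1 (0.02). With 4 arrays of 2 kinds, such closeness says only that these genes differed between the lines by a like amount.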

How the data were processed

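Signal intensities of 4 arrays were deposited by the authors in 1 table with a row for each probe set, and the submitters' processing notes name MAS5, which combines the probes of a set into 1 signal. Its version, its scaling target and any filter: not given in the sources used here. Intensities were linear, and the 2% trimmed means of the arrays differed by at most 7.83%, so they were used as deposited.

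Symbols came from the platform annotation, updated through gene identifiers of the GRCr8 RefSeq table: 7018 probe sets had 1 symbol, 308 several and 1473 none. The 59 control probe sets and the 25% of the rest with the lowest mean signal were left out, and log2(signal + 16) was tested with limma 3.58.1 in R 4.3.3 (lmFit, eBayes with intensity trend, 2-sided, Benjamini-Hochberg, threshold 0.05). The fit was tested on simulated data. Signals within 5% of an array's highest were taken as saturated, and the control level stood in for background; both were set with the values known. The number of arrays limits the precision.

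Members, lists and tests were chosen with earlier results of these data known. Named genes were the members, 16 pathway genes given in any case where measured, up to 4 genes past the threshold with the smallest p in each list, and 3 genes most like each called member. Hif1a, Arnt, Egln3, Epo and Vegfa were given apart from these, after their values were seen. Steap3, Fech, Blvrb, Keap1, Bach1 and Heph were not analysed here. Alternatives were the pseudocount (1, 64), the filter, the scaling, the variance model, a replicate block, a floor, removal of saturated probe sets and each array left out.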

Additional observations from a re-analysis of the deposited data

How the results depend on the processing

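No member probe set changed the sign of its difference in any alternative that tested it. The number of lower members, 3, fell to 2 with the lowest 50% of probe sets left out, where Tfrc was no longer tested, and ran from 2 to 5 when each array was left out in turn; none was higher in any alternative. Over all probe sets, 1330 were lower and 908 higher, and the size of this excess of lower calls depends on the scaling. There were 1181 lower and 1139 higher with quantile normalization, 1193 and 1081 with median scaling, and 1233 and 1065 with cyclic loess. The excess was smaller under each of these and kept its direction. Leaving out each array gave -1.69 to -1.43 for Tfrc, -0.91 to -0.70 for Hmox1 J02722cds_at, -0.39 to -0.24 for Hmox1 rc_AI179610_at and -0.37 to -0.094 for the Fth1 probe set. The same gave -0.51 to -0.065 for Ftl1 rc_AI231807_g_at. For the saturated rc_AI231807_at it gave -0.48 to -0.035, values that follow the highest signals of the arrays and measure no difference between the lines; this probe set is 1 of the 5 counted above. The floor at the control level reduced the Tfrc difference to -0.91 (adjusted p = 2.2e-05), since it replaces the MAT-LyLu values. With quantile normalization Hmox1 rc_AI179610_at was at -0.25 and no longer passed, and Ftl1 rc_AI231807_g_at was at -0.14 and passed; the cause was not tested. With no filter, none of the 3 dim Tf and Cp probe sets passed (adjusted p from 0.085 to 0.43). Pathway genes, whose alternatives were added after seeing the data, numbered 8 to 9 higher and 13 to 20 lower with each array left out. Among the 35 named genes outside the members, 488 of 519 values kept their direction and side of the threshold, 28 lost the call and 3 turned sign, none of these called: Hmox2 (without MAT-LyLu replicate 1 and without G replicate 0) and Nfe2l2 (without G replicate 0). With each array left out, Hmox2 ran from -0.083 to 0.12 and Nfe2l2 from -0.34 to 0.036. Where an array is left out, the lone array of its line is assumed to vary like the other line's.

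The replicate numbers tie the arrays by number only: with 2 pairs, deviations of same-numbered arrays from their line's mean correlated at r = 0.16 over 6555 probe sets. With the replicate block, 1421 probe sets were lower and 967 higher, and the 3 member calls were kept (Tfrc log2 difference -1.56, adjusted p = 8.6e-05). Without detection calls, levels near the control level are not interpretable, and the brightest probe sets are limited by saturation.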

Other observations

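Copper handling and iron-dependent enzymes border on the iron genes above. Of 6 copper-related genes tested, 4 were lower in MAT-LyLu, 1 was higher and 1 did not pass. Over all 3866 tested genes, 19.7% were lower and 14.1% higher. The lists were drawn up with earlier results of these data known, and no test of a list was made. App, the amyloid precursor protein, which binds copper, read 3402 and 2574 in MAT-LyLu, against 19135 and 16954 in G, a 6.09-fold fall (adjusted p = 4.1e-06). Mt3, a metallothionein, was 1.99-fold lower (adjusted p = 8.5e-05). Between the superoxide dismutases, the cytosolic Sod1 was 1.49-fold lower on its brightest probe set (adjusted p = 0.012), with 2 of its 3 probe sets lower. That probe set read 31422 and 28076 in MAT-LyLu, against 40009 and 48666 in G. Both G values lie in the bright range where G replicate 1 was shifted, and the part of that shift was not tested. The call of this Sod1 probe set was lost without MAT-LyLu replicate 0 or MAT-LyLu replicate 1. The extracellular Sod3 was 3.36-fold higher, at 32670 and 35916 in MAT-LyLu against 11371 and 9167 in G (adjusted p = 2.5e-05).

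Of 11 iron-dependent enzymes and hypoxia regulators tested, 2 were higher, 4 lower and 5 did not pass, beside 14.1% higher and 19.7% lower of all tested genes. Hif1a (log2 difference 0.13), Arnt (-0.17), Egln3 (-0.19), Epo (-0.0024) and Vegfa (-0.18) were the 5 that did not pass. The lysyl hydroxylases, which need iron, went apart, with Plod2 at 7852 and 6007 in MAT-LyLu against 2542 and 2808 in G (2.57-fold higher, adjusted p = 0.00013) and Plod1 at 3099 and 2756 in MAT-LyLu against 5638 and 5003 in G (1.82-fold lower, adjusted p = 0.00035). Vhl, which marks hypoxia-inducible factors for degradation, was 2.23-fold lower (adjusted p = 2.4e-05), and both its probe sets were lower. The glucose transporter gene Slc2a1 was 1.93-fold higher (adjusted p = 0.00011). All adjusted p-values here are limma's over all tested probe sets.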
